A study of Mus musculus with 36 samples.

Results

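The values described here are those of 10 immediate early genes, *Fos*, *Fosb*, *Jun*, *Atf3*, *Egr1*, *Nr4a1*, *Ier2*, *Dusp1*, *Btg2* and *Zfp36*, in RNA-seq of mouse embryonic hearts. They were found in each expression table by Ensembl identifier and mouse symbol. All 10 were measured in both E12.5 tables. Of these, 9 were measured at E15.5 and E16.5, and *Fosb* was not among the genes listed at those stages, so it is described at E12.5 only. The whole series holds 14846 genes in any table and 13045 in all 5. The question addressed was how far these genes differed between mutant and WT hearts, and between libraries of the same group, as a check on how the tissue had been handled.

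There were 36 libraries in 5 experiments, each with 4 WT libraries of its own. *Jag1flox;Nfatc1-Cre* (4 mutant libraries) and *Dll4flox;Nfatc1-Cre* (2 mutant libraries) were E12.5 whole hearts, 4 embryos to a pool, lacking *Jag1* or *Dll4* in cells of the *Nfatc1-Cre* lineage, which comprises endocardium, sinus venosus endothelium and the vessels that descend from them. The study had made 4 *Dll4flox;Nfatc1-Cre* libraries and set 2 aside after looking at *Dll4* levels and at clustering, so the 2 analysed here are a selected pair. *Dll4flox;Cdh5-CreERT2* (3 mutant libraries, numbered 2, 3 and 4) were E15.5 ventricles, 3 embryos to a pool, from dams gavaged with tamoxifen at E12.5, with deletion in endothelium. *Dll4GOF;Tie2-Cre* (3 mutant libraries, numbered 2, 3 and 4) were E15.5 ventricles, again 3 embryos to a pool, in which the Tie2 driver, active in endothelium, endocardium and blood cells, removes a stop cassette before a *Dll4* transgene in the *Rosa26* locus, a line made from a single embryonic stem cell clone. *Efnb2flox;Nfatc1-Cre* (4 mutant libraries) were ventricles of single E16.5 embryos, the WT ones numbered 1, 2, 3 and 5. In every experiment the deletion or transgene acts in a minority of the heart's cells, whereas the RNA came from all of them. Whether WT embryos carried floxed alleles or a Cre driver, and whether dams of the WT libraries of the *Cdh5-CreERT2* experiment had tamoxifen, was not given in the sources used here, nor were litters, dissection times or sequencing runs.

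Immediate early genes are transcribed within minutes of a stimulus, without new protein synthesis, from regulators that the cell already holds. Growth factor signals reach them through the MAP kinases, serum response factor with its ternary complex partners, and CREB. They are known to be induced by dissection, warming and dissociation of tissue as well as by hypoxia, stretch and growth factors, so that their levels in excised tissue reflect its last minutes along with its state in the embryo. *Fos*, *Fosb*, *Jun* and *Atf3* encode basic leucine zipper proteins of the AP-1 and ATF group. *Egr1* encodes a zinc finger transcription factor and *Nr4a1* an orphan nuclear receptor. *Ier2* encodes a small nuclear protein. *Dusp1* encodes a phosphatase that switches MAP kinases off, *Zfp36* (tristetraprolin) a protein that destabilizes AU-rich mRNAs, and *Btg2* an antiproliferative protein that promotes deadenylation.

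The bases upstream of the start site are shown for *Fos*, *Nr4a1* and *Btg2*, all high in E12.5 *Dll4* mutant 1, and for *Jun*, which was level there, a choice made with their values known. RefSeq (GRCm38.p6) start sites were matched for 8 members, while *Egr1* and *Ier2* had none and were not searched. The 250 bases before each start were searched on both strands for the CArG box (bound by serum response factor), for TGACGTCA (the full cAMP response element) and for its 5-base core TGACG, which the full element contains. *Fos* (ENSMUSG00000021250, chromosome 12, 85473890 to 85477273, plus strand), *Nr4a1* (ENSMUSG00000023034, chromosome 15, 101254269 to 101274795, plus strand), *Btg2* (ENSMUSG00000020423, chromosome 1, 134075170 to 134079120, minus strand) and *Jun* (ENSMUSG00000052684, chromosome 4, 95049034 to 95052222, minus strand) had windows free of annotated exons. The lines run 5′ to 3′ on the strand of the gene and end 1 base before its RefSeq start, with TGACG or its reverse complement in capitals.
Fos, chr12:85473640-85473889: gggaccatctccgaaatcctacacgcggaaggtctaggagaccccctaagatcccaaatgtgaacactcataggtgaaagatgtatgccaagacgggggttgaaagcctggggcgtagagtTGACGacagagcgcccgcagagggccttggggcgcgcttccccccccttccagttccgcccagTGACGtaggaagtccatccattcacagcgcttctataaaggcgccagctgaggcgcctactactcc
Nr4a1, chr15:101266596-101266845: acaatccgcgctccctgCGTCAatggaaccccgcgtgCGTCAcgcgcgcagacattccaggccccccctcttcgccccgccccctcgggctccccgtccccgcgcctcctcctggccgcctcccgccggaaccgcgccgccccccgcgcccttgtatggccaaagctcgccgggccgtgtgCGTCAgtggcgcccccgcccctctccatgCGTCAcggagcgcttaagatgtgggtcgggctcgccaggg
Btg2, chr1:134079156-134079405: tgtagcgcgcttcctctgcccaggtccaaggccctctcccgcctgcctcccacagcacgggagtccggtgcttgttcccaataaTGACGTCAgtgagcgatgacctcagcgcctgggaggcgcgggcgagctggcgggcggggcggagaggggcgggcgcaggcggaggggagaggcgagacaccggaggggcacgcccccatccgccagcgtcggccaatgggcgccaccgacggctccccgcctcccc
Jun, chr4:95052223-95052472: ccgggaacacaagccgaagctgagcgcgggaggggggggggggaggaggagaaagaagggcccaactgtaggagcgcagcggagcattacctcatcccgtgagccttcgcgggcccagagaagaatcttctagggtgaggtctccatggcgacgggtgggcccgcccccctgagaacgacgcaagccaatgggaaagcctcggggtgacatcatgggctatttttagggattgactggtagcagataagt

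TGACG was present 2 times in the *Fos* window, 4 times in that of *Nr4a1* and 2 times, both within a single TGACGTCA, in that of *Btg2*. The *Jun* window had no match to any of the 3 motifs. The motifs did not divide the members by how they moved at E12.5. *Dusp1*, which varied little in the *Jag1* experiment, had 3 matches to TGACG, and *Zfp36*, which followed *Fos* at E12.5, had none. Of the 8 windows, 6 held TGACG, against 17.8% of all 32851 promoter windows of the same length, and 2 (*Btg2* and *Dusp1*) held TGACGTCA, against 1.55%. A CArG box was found in 1 of the 8, that of *Zfp36* (ENSMUSG00000044786, chromosome 7, 28376784 to 28380253, minus strand), against 1.47% of all windows. The 30 bases around it, with the box in capitals, are shown because the deviations of *Zfp36* correlated positively with those of *Fos* in each experiment. The box runs from -58 to -49 relative to the RefSeq start, inside an exon of a longer annotated transcript.
Zfp36, chr7:28379267-28379296: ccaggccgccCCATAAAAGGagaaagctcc
A match is a run of letters and was not shown to be bound in these hearts. Bases farther upstream were not searched, so a window without a match does not mean that the gene lacks the motif.

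Sequencing depth, as counts recovered from the tables, ranged from 7827496 to 28464430 per library with a median of 15376245.5, and no pair of libraries from the same group, the pairs compared, agreed within sampling noise. Relative to WT, *Jag1* stood at 49.4% to 64.8% in the *Jag1* mutant libraries, and *Dll4* at 8.51% and 10% in the E12.5 *Dll4* mutants. In *Dll4flox;Cdh5-CreERT2*, *Dll4* was at 30.9%, 79.1% and 36.3% of WT for mutants 2, 3 and 4, so that mutant 3 stood apart from the other two. It was at 116% to 129% in *Dll4GOF;Tie2-Cre*, where transgene and endogenous transcript were not separated, and *Efnb2* was at 65.6% to 71.5% in *Efnb2flox;Nfatc1-Cre*. The 5 cardiomyocyte markers were measured in all tables and summed to between 24542 and 42583 normalized counts, as whole hearts and ventricles should show. Replicates were separate pools or embryos. All levels below are normalized counts, that is, counts scaled to a library size adjusted by normalization (CPM), and since each table was normalized separately, tests were made within a table only.

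Across the series, the members were high in a few mutant libraries and in no WT library. Of 188 WT values, 0 exceeded 1.5 times the mean of their own WT group, and the ratios ran from 0.751 to 1.31 (on the log2(value + 0.5) scale, as are all ratios in this paragraph). Each WT value is part of the mean it is set against, which draws WT ratios, but not mutant ratios, towards 1. Of 150 mutant values, 27 exceeded 1.5 times and 13 exceeded 2 times the WT mean. Those 13 fell in 4 libraries, with 3 of 10 members in *Jag1* mutant 1, 4 of 10 in *Jag1* mutant 2, 5 of 10 in E12.5 *Dll4* mutant 1 and 1 of 9 in *Dll4GOF* mutant 4. Shares of all genes past these cuts are not given here. The mean log2 difference from WT over the 9 members measured everywhere was 0.61 and 0.75 in *Jag1* mutants 1 and 2, but 0.08 and 0.07 in mutants 3 and 4. It was 1.06 in E12.5 *Dll4* mutant 1 and 0.12 in mutant 2. In the other mutant libraries it ran from 0.05 to 0.41, and in WT libraries from -0.13 to 0.16.

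**Figure D1:**
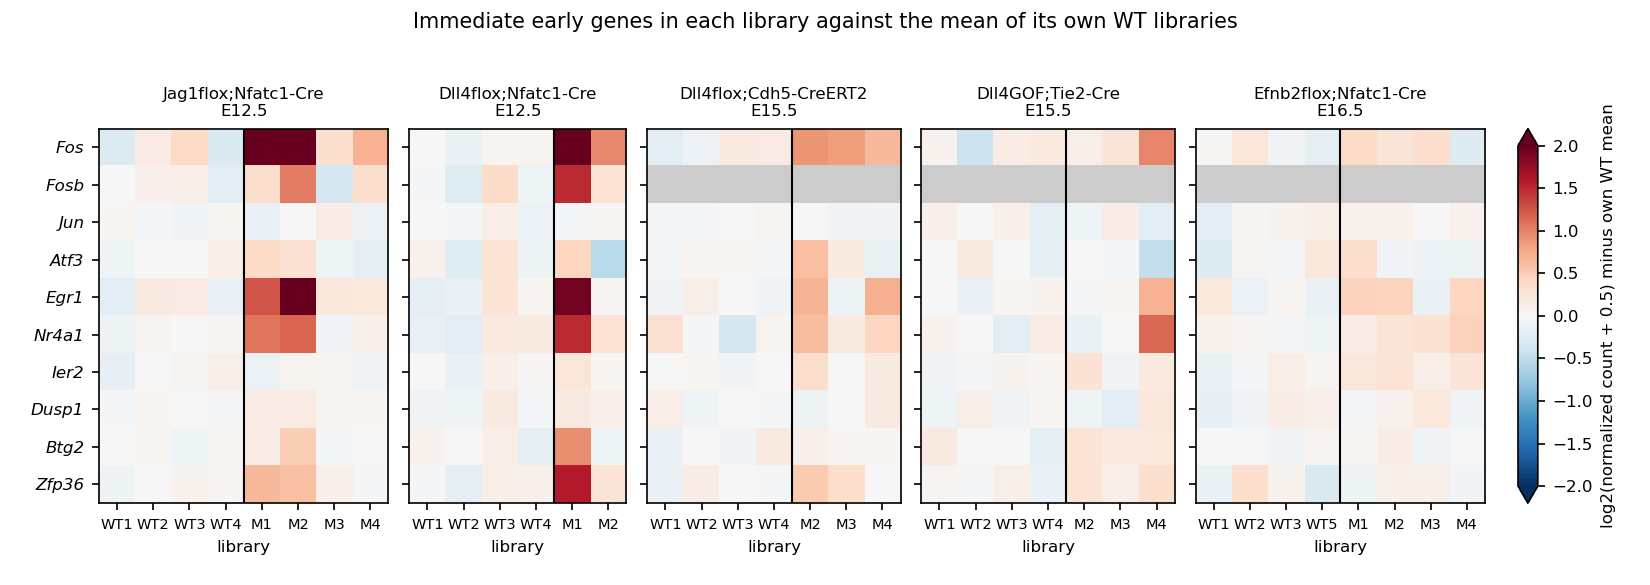
Each square is a library's log2(normalized count + 0.5) for a gene (rows) minus the mean of the WT libraries of its own experiment; WT libraries stand left of the black line and mutants (M) right of it, and grey marks *Fosb* where it was not in the table. The strongest colours fall in *Jag1* mutants 1 and 2 (*Fos* and *Egr1*) and in E12.5 *Dll4* mutant 1 (*Fos*, *Egr1*, *Zfp36*, *Fosb* and *Nr4a1*). *Nr4a1* and *Fos* in *Dll4GOF* mutant 4 (1.14 and 0.98) and *Fos* in E12.5 *Dll4* mutant 2 (0.96) are among others coloured too. The *Jun* row stays pale throughout.

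In *Jag1flox;Nfatc1-Cre* hearts at E12.5, *Fos*, *Egr1*, *Nr4a1* and *Zfp36* were far above WT in mutants 1 and 2, and in mutants 3 and 4 near WT except for *Fos* in mutant 4. None of the 10 members was called (limma, adjusted p under 0.05), where 1.75% of all 13982 genes were, and 4 had an unadjusted p under 0.05, all higher in mutants, as had 12.52% of all genes. *Fos* was at 4.17, 5.78, 6.88 and 4.09 normalized counts in WT libraries 1 to 4 and at 22.5, 21.7, 6.5 and 8.61 in mutants 1 to 4. Mutants 1 and 2 stood far above the highest WT library and mutant 4 a little above it, whereas mutant 3 lay within the WT range. The log2 fold change of *Fos* was 1.26 (standard error 0.347, limma adjusted p = 0.0723). *Egr1* was at 19.1, 25.2, 24.8 and 20.2 in WT and 53.8, 90.0, 26.1 and 25.6 in mutants, which is the only member whose mutant libraries all lay above all WT libraries here (1 of 10, against 6.77% of all genes). Its mutants 3 and 4 exceeded the highest WT library by less than 1 normalized count, and its log2 fold change was 0.92 (standard error 0.324, limma adjusted p = 0.123).

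*Nr4a1* had the tightest contrast between the libraries, with 17.5, 19.6, 18.9 and 19.4 in WT, 40.0 and 42.7 in mutants 1 and 2, and 18.1 and 20.2 in mutants 3 and 4 (log2 fold change 0.57, standard error 0.236, limma adjusted p = 0.173). *Zfp36* was at 15.48, 16.7, 17.6 and 17.2 in WT and at 26.6, 25.6, 17.9 and 16.505 in mutants (0.33, standard error 0.14, limma adjusted p = 0.177). Mutants 1 and 2 were the highest libraries for both genes. *Fosb*, a partner of Jun in AP-1 like *Fos*, was at 0.931 to 1.32 in WT and at 1.62, 2.88, 0.801 and 1.62 in mutants. *Atf3* was at 19.6 to 22.8 in WT and at 27.4, 26.0, 19.7 and 18.1 in mutants, and *Btg2* at 31.6 to 34.8 in WT and 37.4, 47.2, 33.1 and 33.6 in mutants. *Jun*, *Ier2* and *Dusp1* did not follow them. *Jun* was at 108, 103, 100.6 and 108 in WT and at 96.0, 104, 117 and 96.4 in mutants, with a log2 fold change of -0.03 (standard error 0.0659). *Ier2* stayed between 37.3 and 45.1 in all 8 libraries, and *Dusp1* between 28.8 and 33.4. The 4 members with an unadjusted p under 0.05 became 2 without WT 1, WT 4, mutant 1 or mutant 2. Without mutant 3, *Fos* was called (log2 fold change 1.57, limma adjusted p = 0.0287), and over all alternatives its adjusted p ran from 0.0287 to 0.17.

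In *Dll4flox;Nfatc1-Cre* hearts at E12.5, *Fos*, *Fosb*, *Egr1*, *Nr4a1* and *Zfp36* stood at more than 2 times their WT mean in mutant 1, and in mutant 2 *Fos* was the member farthest above it. None of the 10 was called by limma, against 2.17% of all 14302 genes, and 5 had an unadjusted p under 0.05, all higher in mutants, against 10.61% of all genes. *Fos* was at 4.13, 3.71, 4.28 and 4.29 in WT, at 31.5 in mutant 1 and at 8.45 in mutant 2, so that both mutants lay above all WT libraries, and far from each other. The log2 fold change was 1.88 (standard error 0.404, limma adjusted p = 0.0554). *Egr1* was at 18.3, 18.9, 25.2 and 21.5 in WT, at 81.2 in mutant 1 and, within the WT range, at 21.3 in mutant 2 (0.98, standard error 0.419, limma adjusted p = 0.222). *Nr4a1* was at 15.9, 15.2, 20.3 and 20.02 in WT and at 50.5 and 21.4 in mutants (0.88, standard error 0.287, limma adjusted p = 0.133). *Zfp36* was at 14.7, 13.3, 16.6 and 16.3 in WT and at 46.4 and 18.3 in mutants (0.92, standard error 0.296, limma adjusted p = 0.127). For these last 2 genes mutant 2 passed the highest WT library by less than 2 normalized counts. Mutants lay above all WT libraries for 3 of 10 members (*Fos*, *Nr4a1* and *Zfp36*), against 15.49% of all genes in this comparison of 4 with 2.

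*Btg2* was at 38.0, 35.8, 39.5 and 31.6 in WT, at 69.0 in mutant 1 and at 34.0 in mutant 2. *Fosb* was at 0.659 to 1.27 in WT and at 3.35 and 1.15 in mutants. *Atf3* lay on either side of WT, with 15.9 to 23.1 in WT, 25.7 in mutant 1 and 13.0 in mutant 2. *Jun* was again level, at 96.8, 95.3, 106 and 88.7 in WT and 94.0 and 98.9 in mutants, and *Dusp1* mutants (31.1 and 29.6) lay inside the WT range of 25.9 to 31.1. *Ier2* was at 24.9 to 29.4 in WT and at 32.2 and 28.0 in mutants. The 5 members with an unadjusted p under 0.05 became 3 without WT 1, WT 2 or WT 4 and 2 without mutant 1. The calls turn on which of the 2 mutants is kept. Without mutant 2, with the spread of the remaining lone mutant taken to be that of WT, 5 members were called (*Fos*, *Egr1*, *Nr4a1*, *Zfp36* and *Btg2*), and without mutant 1 only *Fos* was (log2 fold change 0.96, limma adjusted p = 0.0336, range over all alternatives 0.000895 to 0.14).

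**Figure D2:**
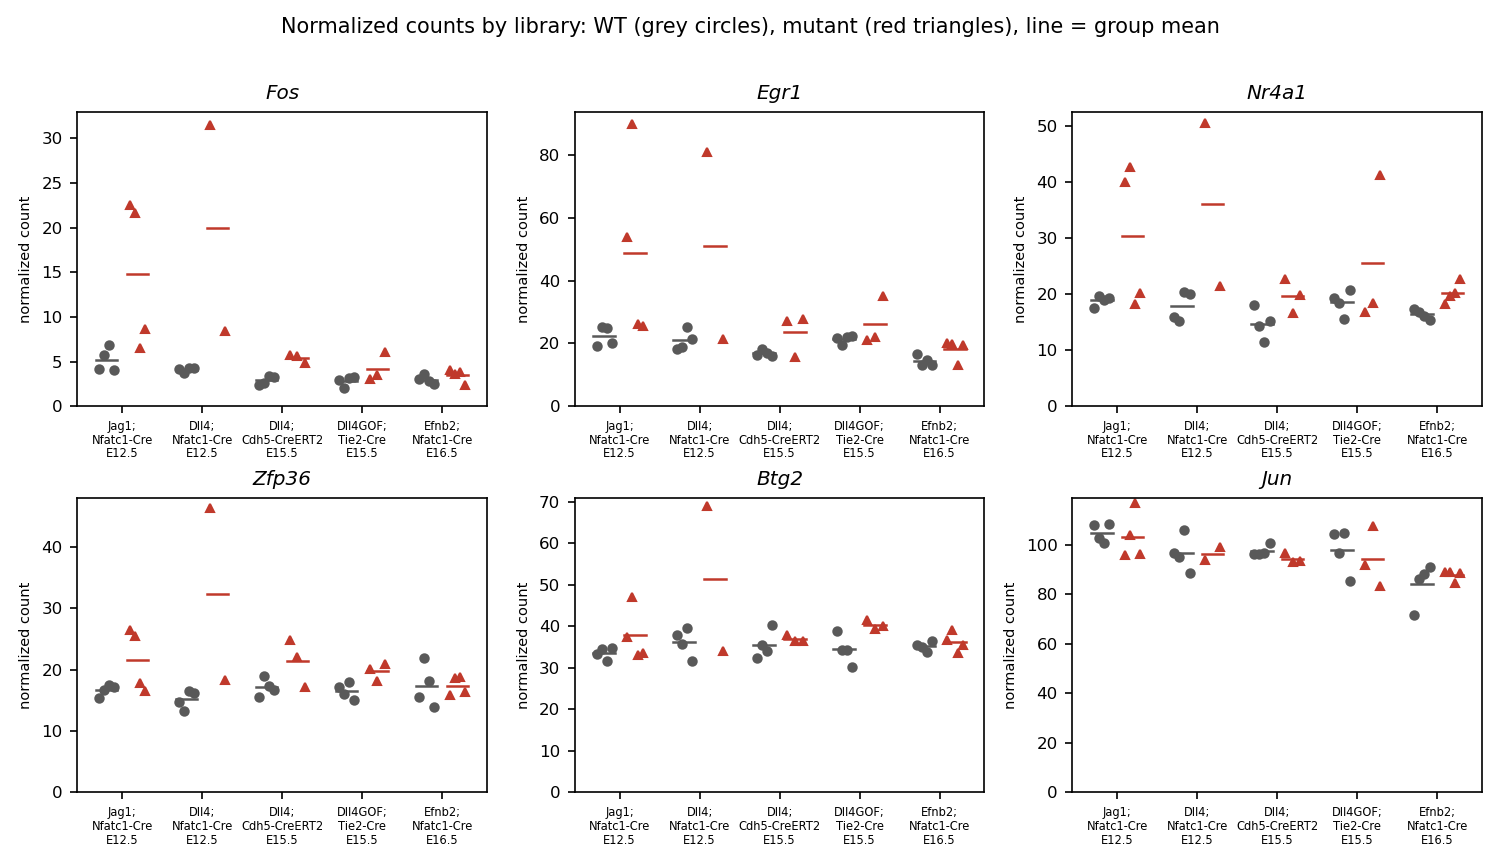
Normalized counts (vertical axis, linear from 0) of 6 members in every library of the 5 experiments, with WT as grey circles, mutants as red triangles and the group mean as a line; tables were normalized separately. *Fos*, *Egr1*, *Nr4a1* and *Zfp36* show 2 high triangles and 2 lower ones in *Jag1* mutants and 1 high triangle in E12.5 *Dll4* mutants, and *Jun* shows no such split.

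Markers of other cell types and the mitochondrial share are set beside these values, and their part in the result was not tested. The mitochondrial share was 2.51% and 2.68% in *Jag1* mutants 1 and 2 and 2.902% to 3.41% in the other 6 libraries, and in the E12.5 *Dll4* experiment 4.32% and 4.22% in mutants and 4.62% to 5.27% in WT. The 6 erythroid markers (haemoglobin genes among them) summed to 6963 to 9506 normalized counts in *Jag1* WT libraries and to 21669, 17266, 16347 and 4498 in mutants 1 to 4, and thus high in mutants 1 to 3. In E12.5 *Dll4* mutants the sums were 8172 and 3722, against 5869 to 10820 in WT. The 5 macrophage markers summed to 72.7 to 88.2 in *Jag1* WT and 64.7 to 77.2 in mutants, and to 88.4 to 95.8 and 80.7 to 88.3 in the *Dll4* experiment. Endothelial markers summed to 676 to 697 in *Jag1* WT and 666 to 711 in mutants, and the 4 epicardial markers, of which 2 rose, to 223.6 to 298.8 and 295.6 to 322.1. The 4 endocardial markers, of which 1 fell, summed to 583 to 628 in *Jag1* WT and 512 to 597 in mutants. The 5 mural markers, of which 1 fell, summed to 1309 to 1695 and 1222 to 1341. There 1 macrophage marker and 1 platelet and megakaryocyte marker fell and 2 erythroid markers rose, where 1.75% of all genes were called. The 4 fibroblast markers summed to 2434 to 2797 in *Jag1* WT and to 3637, 2811, 2957 and 3152 in mutants 1 to 4, with mutant 1 highest. The 4 endocardial markers summed to 541.03 to 593.1 in E12.5 *Dll4* WT and to 490.2 and 423.5 in mutants, and 1 epicardial marker rose there. Of 5 neutrophil and myeloid genes, 0 were in the *Jag1* table and 3 in the E12.5 *Dll4* table (0.786 to 3.05 in WT, 7.99 and 5.77 in mutants 1 and 2). Platelet and megakaryocyte markers (5 listed) summed to 29.6 to 76.4 in E12.5 *Dll4* WT libraries and to 17.2 and 13.8 in mutants 1 and 2. *Jag1* mutant libraries were shallower than their WT libraries, 12914259 to 18581508 against 18182839 to 28464430 counts. *Fos* rested on 72 to 185 counts in WT and 109 to 284 in mutants there. In bulk RNA, more cells with a transcript and more transcript per cell cannot be told apart.

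In *Dll4flox;Cdh5-CreERT2* ventricles at E15.5, *Fos* rose, and it was the only one of the 9 measured members to be called (1.15% of all 13897 genes were called). *Fos* was at 2.4, 2.64, 3.37 and 3.3 in WT and at 5.78, 5.59 and 4.82 in mutants 2, 3 and 4, with no overlap between the groups (1 of 9 members, against 6.97% of all genes). Its log2 fold change was 0.79 (standard error 0.167, limma adjusted p = 0.0475). The call sits at the threshold. It was lost without the mean-variance trend, with quantile normalization, with the replicate block and without any 1 of the 7 libraries, and its adjusted p over the alternatives ran from 0.0454 to 0.258. These values rest on 27 to 39 counts in WT libraries and 45 to 61 in mutants.

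Of the other members, *Nr4a1*, *Egr1* and *Zfp36* had an unadjusted p under 0.05 along with *Fos* (4 of 9, all higher in mutants, against 8.18% of all genes). Without WT 3 or mutant 2 the count was 1, and without WT 1 or WT 4 it was 2. *Egr1* was at 16.2, 18.3, 16.9 and 16.02 in WT, at 27.2 and 27.9 in mutants 2 and 4, and at 15.6 in mutant 3, below all WT libraries. Mutant 3 is also the library in which *Dll4* was least reduced. It lay above mutant 4 in *Fos*, *Zfp36* and *Atf3* and below it in the other members, and a link with *Dll4* was not tested. The log2 fold change of *Egr1* was 0.43 (standard error 0.171, limma adjusted p = 0.277). Without mutant 3 it was 0.70 and was called (limma adjusted p = 0.00295, range over all alternatives 0.00295 to 0.698). *Nr4a1* was at 18.0, 14.2, 11.5 and 15.2 in WT and 22.7, 16.54 and 19.8 in mutants (0.41, standard error 0.149, limma adjusted p = 0.231). *Zfp36* was at 15.6 to 19.0 in WT and 24.9, 22.1 and 17.1 in mutants, and *Atf3* at 18.0 to 19.2 in WT and 28.6, 21.2 and 16.7 in mutants. Mutant 2 was therefore the highest library for *Fos*, *Nr4a1*, *Zfp36*, *Atf3* and *Ier2* (32.1, against 24.1 to 25.5 in WT). *Jun* had a span of only 93.1 to 100.7, *Dusp1* of 23.7 to 29.2 and *Btg2* of 32.4 to 40.3 over the 7 libraries. Endothelial markers summed to 747 to 815 in WT and 810 to 1012 in these mutants. The 3 neutrophil and myeloid genes in the table summed to 1.49 to 4.77 in WT and to 8.50, 4.98 and 5.61 in mutants 2, 3 and 4, all above WT. The 5 macrophage markers, all with a positive fold change and 3 with an unadjusted p under 0.05, summed to 66.0 to 90.8 in WT and 79.7 to 101.9 in mutants, and the part of these cells in the result was not tested.

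Ventricles of *Dll4GOF;Tie2-Cre* embryos at E15.5 had 0 of 9 members called by limma (0% of all 13737 genes were), and 2 of 9 with an unadjusted p under 0.05, against 4.05% of all genes in the same direction. These were *Btg2* and *Zfp36*, the pair whose mutant libraries all lay above all WT libraries (2 of 9, against 4.56% of all genes). *Btg2* was at 38.8, 34.3, 34.4 and 30.3 in WT and 41.4, 39.4 and 40.0 in mutants 2, 3 and 4 (log2 fold change 0.23, standard error 0.0759, limma adjusted p = 0.432). *Zfp36* was at 17.2, 16.1, 18.0 and 15.1 in WT and 20.1, 18.2 and 20.9 in mutants (0.24, standard error 0.0832, limma adjusted p = 0.444). Without mutant 2 the count at an unadjusted p under 0.05 was 5, and without mutant 4 it was 1. In both genes the lowest mutant passed the highest WT library by less than 1 normalized count.

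Mutant 4 stood apart from mutants 2 and 3 in *Nr4a1*, *Egr1* and *Fos*, but not in *Zfp36* or *Btg2*. *Nr4a1* was at 41.3 there, against 16.8 and 18.5 in mutants 2 and 3 and 15.6 to 20.8 in WT. *Egr1* was at 35.05, against 21.2 and 22.0 in the other mutants and 19.5 to 22.5 in WT, and *Fos* at 6.05, against 3.09 and 3.49 and a WT range of 1.99 to 3.31. *Atf3* went the other way in that library, at 12.53 against 15.3 to 20.03 in WT. The fold change of *Nr4a1* was 0.34 (standard error 0.245) with mutant 4 and -0.07 without it. *Jun* was at 85.5 to 105 in WT and 91.9, 108 and 83.5 in mutants, *Ier2* at 25.6 to 28.4 and 32.9, 25.5 and 31.0, and *Dusp1* at 28.0 to 32.4 and 28.0, 25.6 and 34.9.

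In single *Efnb2flox;Nfatc1-Cre* embryos at E16.5, the members differed little. All 9 had a positive log2 fold change, of at most 0.30, where 49.5% of all genes were positive, but 0 were called by limma (0.0296% of all 13527 genes were), and 0 by edgeR or DESeq2. At an unadjusted p under 0.05 there were 3 by limma (*Nr4a1*, *Ier2* and *Egr1*), 3 by edgeR and 2 by DESeq2, against 3.22% of all genes higher by limma, and 0 by limma with the replicate block. *Nr4a1* was at 17.3, 16.7, 16.1 and 15.4 in WT and 18.3, 19.6, 20.2 and 22.7 in mutants (0.29, standard error 0.0877, limma adjusted p = 0.678), and *Ier2* at 16.01, 17.3, 19.4 and 18.5 in WT and 20.9, 21.6, 19.6 and 21.4 in mutants (0.22, standard error 0.0843, limma adjusted p = 0.731). Both were without overlap (2 of 9, against 2.01% of all genes).

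*Egr1* was at 16.8, 13.2, 14.8 and 13.2 in WT and 20.1, 19.8, 13.1 and 19.6 in mutants, mutant 3 lying just below the lowest WT library. *Fos* was at 3.0, 3.61, 2.81 and 2.51 in WT and 4.08, 3.63, 3.89 and 2.38 in mutants, and the groups overlapped. *Jun* was at 71.5 in WT 1 and at 84.5 to 91.1 in the other 7 libraries. *Zfp36* ran from 13.995 to 21.9 in WT and 15.9 to 18.8 in mutants, *Atf3* from 15.2 to 21.6 and 16.9 to 23.4, *Dusp1* from 24.4 to 30.4 and 26.2 to 32.0, and *Btg2* from 33.9 to 36.6 and 33.6 to 39.2. No value of a member in these single embryos reached 1.5 times its WT mean, the highest ratio being 1.38.

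The spread between libraries of one group was larger for the members than for most genes at E12.5 and nearly the same at E16.5. The median within-group SD of the members (log2 scale, mutant and WT pooled) was 0.231 in the *Jag1* experiment, where the median over all genes was 0.118. In the E12.5 *Dll4* experiment it was 0.43 against 0.11, in *Dll4flox;Cdh5-CreERT2* 0.178 against 0.136, in *Dll4GOF;Tie2-Cre* 0.161 against 0.104, and in *Efnb2flox;Nfatc1-Cre* 0.135 against 0.129. The E12.5 *Dll4* value fell to 0.14 without either mutant, since 1 mutant has no spread. Among WT libraries alone the members' median SD was 0.0822 in the *Jag1* experiment, below the 0.109 of all genes, and 0.14, 0.0912, 0.136 and 0.156 in the following experiments, against 0.1, 0.115, 0.0943 and 0.118. Among *Jag1* mutants it was 0.315, against 0.115 over all genes, and among E12.5 *Dll4* mutants 0.788, against 0.0955.

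At E12.5 the wide spread lay in the mutant libraries, and in certain members. In the *Jag1* experiment 9 of 10 members had a larger SD among mutants than among WT, where 54.3% of all genes had, and in the E12.5 *Dll4* experiment 8 of 10, where 46.4% of all genes had. The shares were 5 of 9 against 60.4%, 7 of 9 against 51% and 5 of 9 against 52.1% in the later experiments. *Nr4a1* had an SD of 0.0717 among *Jag1* WT libraries and 0.634 among mutants, and *Egr1* 0.201 and 0.869. *Dusp1* had 0.0389 and 0.0683. By pooled SD *Fos*, *Egr1*, *Nr4a1* and *Fosb* lay between percentiles 96.7 and 98.7 of all genes in both E12.5 tables, whereas *Jun* lay at percentiles 36.7 and 40.5 and *Dusp1* at 5.61 and 49.0. Among genes of similar level *Fosb*, at about 1 normalized count, lay lower, at percentiles 88.3 and 89.2.

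**Figure D3:**
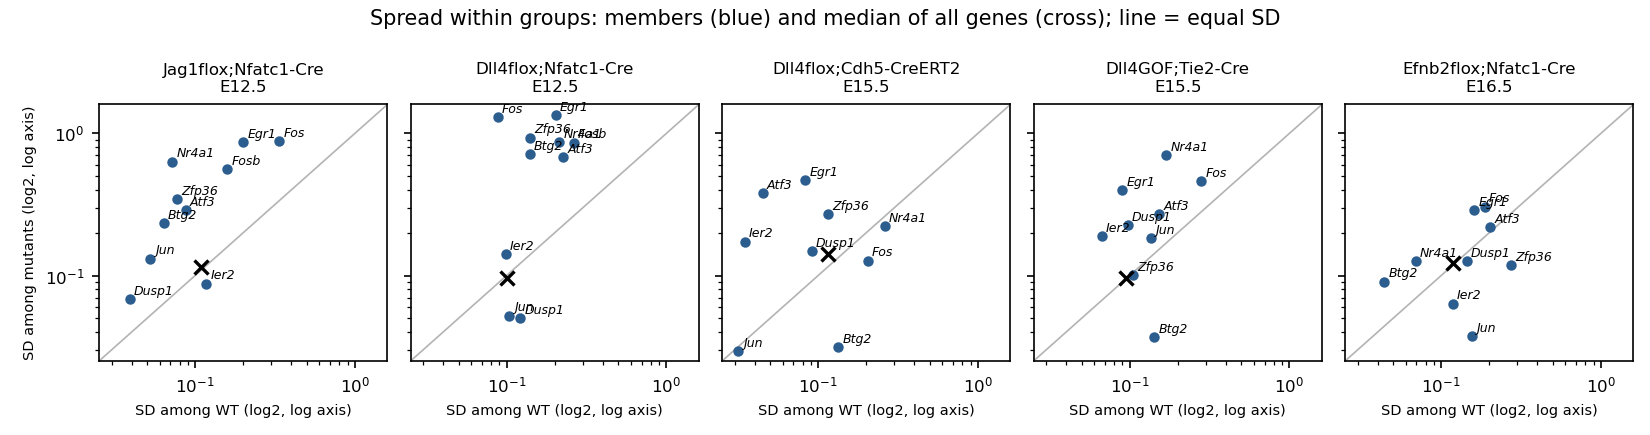
SD of each member among mutant libraries (vertical, log2 units on a log axis) against its SD among WT libraries (horizontal, likewise), one panel per experiment, with the line of equal SD and a cross at the median of all genes. *Nr4a1*, *Egr1*, *Fos* and *Zfp36* stand far above the line in both E12.5 panels, and the E16.5 points scatter around the cross.

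Within groups, *Zfp36* was the only member measured in all 5 experiments whose deviations correlated positively with those of *Fos* in each. The relation was strong at E12.5 and less so later, and those of the other members were less even. Deviations of each library from its own group's mean were compared over libraries, with permutation of libraries within groups (two-sided, 100000 resamples) and Benjamini-Hochberg adjustment over a family of 12 relations. The 2 mutant libraries of the E12.5 *Dll4* experiment mirror each other by construction, and the libraries described above as high lie far from the others. *Fos* and *Zfp36* had r = 0.777 (permutation p = 0.00137, adjusted p = 0.0164) and rho = 0.643 (permutation p = 0.00198, adjusted p = 0.022) over 36 libraries. The coefficient was positive within each experiment, 0.912, 0.989, 0.454, 0.356 and 0.525 in the order given above. Without the 2 libraries farthest from the median of *Fos* it was 0.722 (permutation p = 0.00183, adjusted p = 0.022). Those 2 were *Jag1* mutant 3 and E12.5 *Dll4* mutant 2, the low members of their groups, here and in the relations that follow, so the high libraries stayed in. Among the 20 WT libraries it was 0.426.

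*Fos* and *Egr1* had r = 0.791 (permutation p = 0.0141, adjusted p = 0.0422) and rho = 0.654 (permutation p = 0.00429, adjusted p = 0.022) over 36 libraries. Within experiments, r was 0.905 and 0.979 at E12.5 and 0.928 in *Dll4GOF;Tie2-Cre*, but -0.21 in *Dll4flox;Cdh5-CreERT2* and -0.24 in *Efnb2flox;Nfatc1-Cre*, and without the 2 farthest libraries the pooled r was 0.711 (permutation adjusted p = 0.0904). The relation thus did not hold in every experiment, and its adjusted p without those libraries was over 0.05. *Fos* and *Fosb*, which could be compared over the 14 E12.5 libraries, had r = 0.835 (permutation p = 0.00754, adjusted p = 0.0302) and rho = 0.798 (permutation p = 0.00549, adjusted p = 0.022), 0.682 without the 2 farthest (permutation adjusted p = 0.0904). *Fos* and *Nr4a1* had r = 0.747 (permutation p = 0.0239, adjusted p = 0.0574) and rho = 0.526 (permutation p = 0.0308, adjusted p = 0.0739), with r of 0.938 and 0.952 at E12.5, 0.772 in *Dll4GOF;Tie2-Cre* and -0.51 in both *Dll4flox;Cdh5-CreERT2* and *Efnb2flox;Nfatc1-Cre*. With *Jun*, *Ier2*, *Atf3*, *Dusp1* and *Btg2* the adjusted p was 0.154 or more. *Atf3* had r of 0.82 and 0.90 at E12.5 but -0.95 in *Dll4GOF;Tie2-Cre*, and *Jun* had the sole negative coefficient, -0.34. Depth (r = -0.11) and mitochondrial share (r = -0.28, -0.85 within the *Jag1* experiment) were set against the mean of the 9 members as a description.

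**Figure D4:**
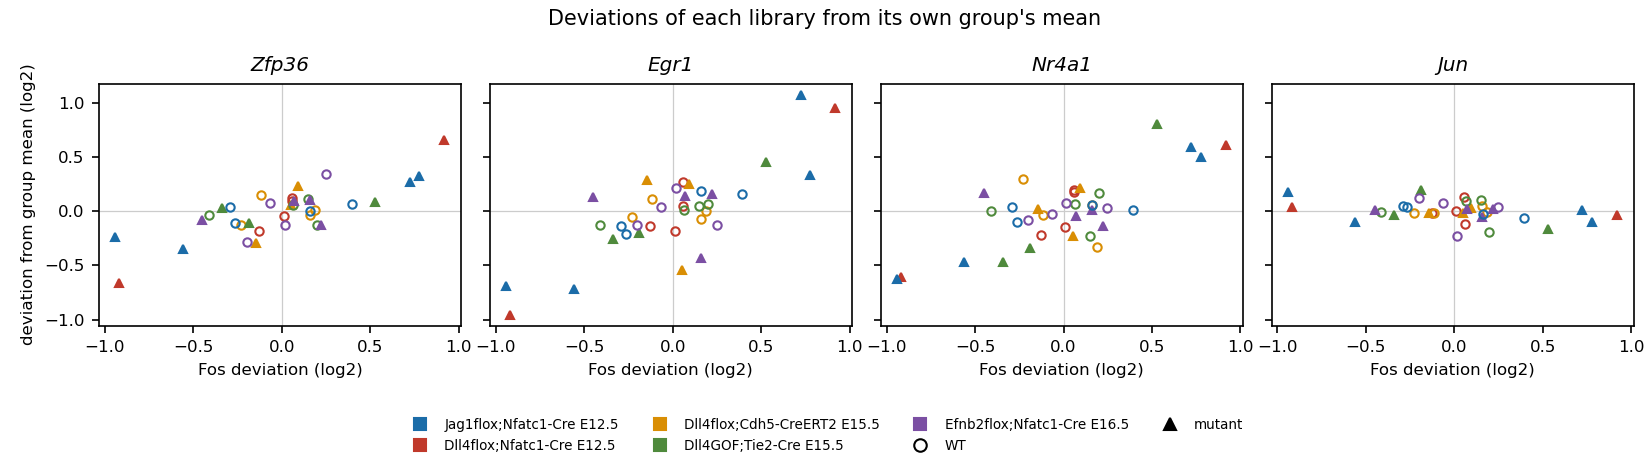
Each point is a library, at its deviation from its own group's mean in *Fos* (horizontal, log2) and in another member (vertical, log2); colours mark experiments, open circles WT and triangles mutants. The *Zfp36*, *Egr1* and *Nr4a1* points rise with *Fos* through the E12.5 mutants at either end, and the *Jun* points stay near 0.

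Ranked by likeness to the mean deviation of the other 8 members over 36 libraries, the members themselves differed widely. Among 12973 genes, *Egr1* had rank 1 (r = 0.857), *Fos* and *Zfp36* each rank 3 (0.796 and 0.803), *Nr4a1* rank 4 (0.761) and *Btg2* rank 6 (0.753), each against the mean that leaves it out. *Atf3* had rank 42 (0.567). *Ier2* had rank 473, *Dusp1* rank 1225 and *Jun* rank 10577 (r = -0.19). The 8 genes outside the members most like their mean were *Hspa1b* (r = 0.852) and *Hspa1a* (0.837), which encode inducible heat shock proteins, *Gadd45g* (0.775), *Junb* (0.759) and *Nr4a3* (0.734), themselves growth factor-induced early genes, *Ddit3* (0.746), a transcription factor of the endoplasmic reticulum stress response, *Mt2* (0.737), a metallothionein, and *Pim1* (0.709), a kinase. *Hspa1a* and *Hspa1b* are near-identical copies, so the split of reads between them is uncertain. Among WT libraries only, these coefficients ran from -0.22 (*Junb*) to 0.568 (*Pim1*). Early genes as a class did not all follow the members. Over the 27 other listed early genes measured in all 5 experiments, r with the members' mean ran from -0.54 (*Myc*) to 0.775 (*Gadd45g*).

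*Hspa1b* was at 10.1, 19.1, 14.1 and 12.3 normalized counts in *Jag1* WT libraries and at 76.7, 55.5, 30.7 and 16.6 in mutants 1 to 4. In the E12.5 *Dll4* experiment it was at 4.84 to 7.64 in WT, 91.4 in mutant 1 and 13.0 in mutant 2. *Dll4GOF* mutant 4 was also the highest of its 7 libraries, at 10.9 against 5.4 to 6.83 in the rest. *Ddit3* was at 9.32 to 12.2 in *Jag1* WT and 66.5, 53.8, 19.0 and 17.04 in mutants, and *Junb* at 9.36 to 13.6 in WT and 26.9, 30.8, 13.6 and 14.5 in mutants. *Jag1* mutants 1 and 2 were the highest libraries for these 3 genes, which were picked for their likeness to the members. *Ddit3* and *Mt2* differed from the members in that every mutant library at E12.5 lay above WT. *Mt2* was at 2.49 to 3.95 in *Jag1* WT and 46.8, 51.6, 20.2 and 15.2 in mutants, and 2.45 to 3.75 in *Dll4* WT and 101.2 and 58.9 in mutants. The mean of 9 listed heat shock genes, *Hspa1a* and *Hspa1b* among them, followed the members' mean with r = 0.847 over 36 libraries (0.94 among 16 mutants, 0.234 among 20 WT, and -0.84 within the *Efnb2* experiment). This is given as a description, and no value without those 2 genes was computed. In each E12.5 experiment 4 of the 9 had a positive log2 fold change, as had 50.9% of all genes (list median -0.006 in *Jag1* and -0.047 in *Dll4*). In the later experiments 9, 8 and 6 had, in the order of the report, against 49.8%, 50.3% and 49.5% of all genes. In *Jag1* mutants 1 of the 9 was called lower by limma and 0 higher, where 1.75% of all genes were called. The summed level of the same list, in which constitutive chaperones dominate, was 2676 to 3116 in *Jag1* WT and 2643 to 3147 in mutants, where the groups overlapped and mutant 1 was the lowest of the 8 libraries.

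**Figure D5:**
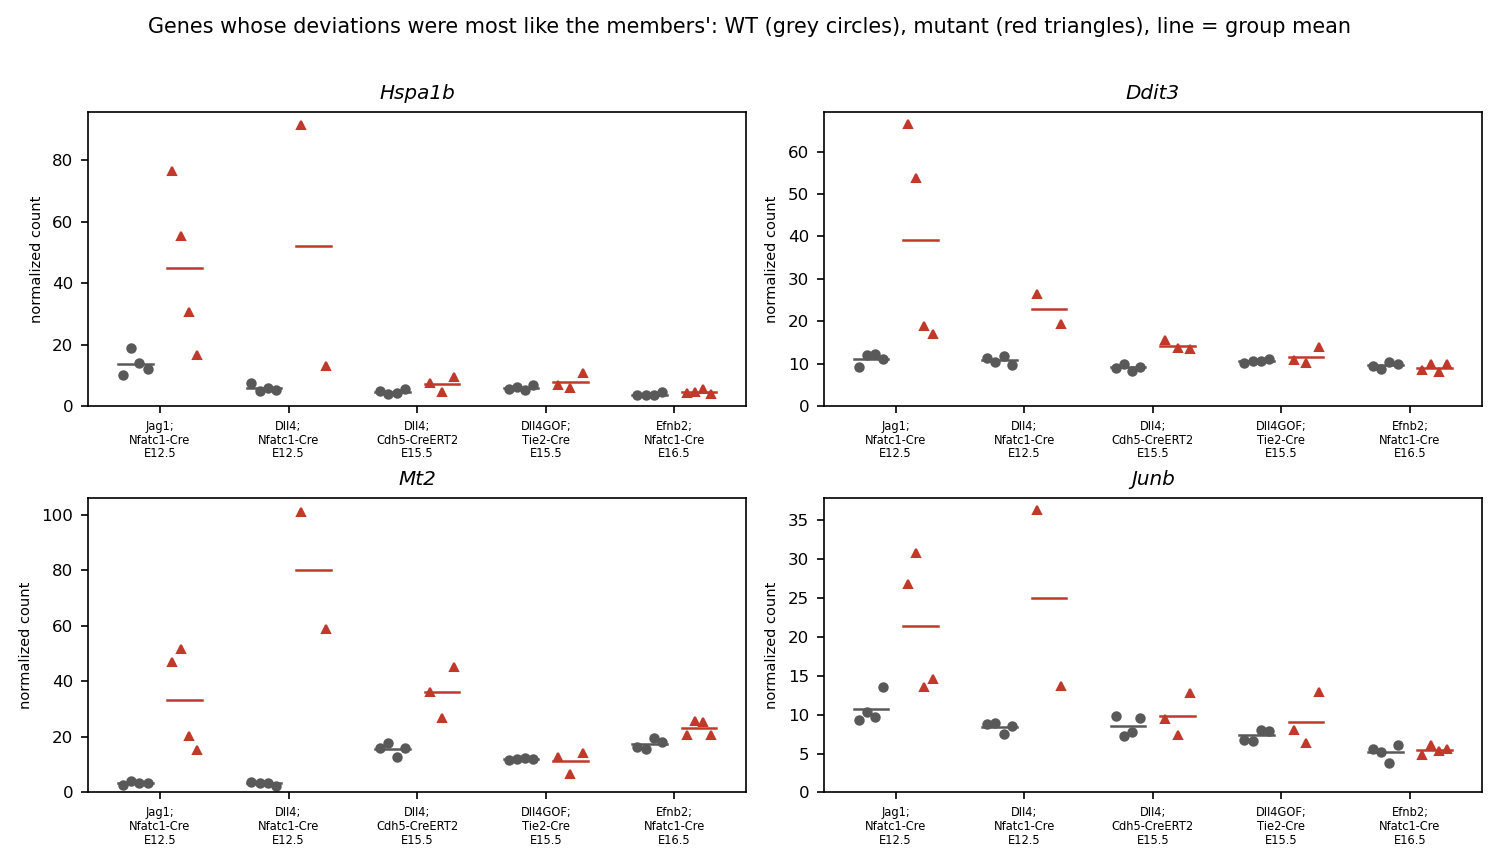
Normalized counts (vertical axis, linear from 0) of 4 of the genes most like the members, in every library, with WT as grey circles, mutants as red triangles and group means as lines. *Hspa1b*, *Ddit3* and *Junb* split the *Jag1* mutants into 2 high and 2 lower libraries, and *Ddit3* and *Mt2* lie above WT in every mutant library at E12.5.

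Other genes of the early response were taken from a list of 32. Of 30 measured, 4 rose and 0 fell in E12.5 *Dll4* mutants, where 2.17% of all genes were called. An unadjusted p under 0.05 was found for 12, as for 21.4% of all genes, and 11 of the 12 were higher. *Ier3*, which encodes a stress-induced survival protein, rose from 13.9 to 19.6 in WT to 45.7 and 52.6 (log2 fold change 1.61, standard error 0.138, limma adjusted p = 0.00176). *Fosl2*, an AP-1 subunit, rose from 27.4 to 30.6 in WT to 43.0 and 44.3 (0.58, limma adjusted p = 0.0131). *Sik1*, a salt-inducible kinase, rose by 0.53 (limma adjusted p = 0.0201) and *Maff*, a small Maf protein, by 0.83 (limma adjusted p = 0.0413). The median log2 fold change of the list was 0.12, that of the 10 members 0.65 and that of all genes 0.0039. In *Jag1* mutants 0 of 29 were called by limma (1.75% of all genes were), 11 had an unadjusted p under 0.05, as had 23.7% of all genes, and 9 of the 11 were higher. The nearest to a call were *Ccn2*, at 93.3 to 116 in WT and 121 to 167 in mutants (0.39, limma adjusted p = 0.0572), *Fosl2* (0.55, limma adjusted p = 0.0601) and *Ier3* (1.22, limma adjusted p = 0.0623). In *Dll4flox;Cdh5-CreERT2*, where 1.15% of all genes were called, 2 of 30 rose, *Maff* (0.67, limma adjusted p = 0.0345) and *Dusp6* (0.46, limma adjusted p = 0.0498), an ERK phosphatase. There 17 had an unadjusted p under 0.05, as had 14.2% of all genes, and 16 of the 17 were higher. The exception was *Jund*, at 94.5 to 122.4 in WT and 76.7 to 90.9 in mutants (-0.42, limma adjusted p = 0.0533). None of 29 and of 28 was called in *Dll4GOF;Tie2-Cre* and *Efnb2flox;Nfatc1-Cre* by limma (5 and 7 had an unadjusted p under 0.05, all higher, as had 4.05% and 3.22% of all genes).

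Of 15 genes for the kinases and factors that act upstream of the members, 0 were called in any of the 5 experiments by limma, and 3, 6, 4, 2 and 2 had an unadjusted p under 0.05, where 23.7%, 21.4%, 14.2%, 9.32% and 6.34% of all genes had. *Map2k1* (MEK1) was at 93.0 to 98.5 in *Jag1* WT and 103 to 127 in mutants (log2 fold change 0.24, standard error 0.0636, limma adjusted p = 0.0673). *Map2k2* (MEK2) went the other way there, at 137.3 to 163.4 in WT and 117.8 to 131.7 in mutants (-0.23, standard error 0.0641, limma adjusted p = 0.0728). *Srf*, the factor that binds the CArG box, was at 174 to 200 in E12.5 *Dll4* WT and at 122 to 176 in the 2 mutants (-0.33, standard error 0.126, limma adjusted p = 0.178). In that experiment *Map2k1* (0.18) and *Mapk3* (0.22), both higher in mutants, and *Mapk14* (-0.17), lower, had smaller p than *Srf*. *Creb1*, which binds the cAMP response element, was at 47.5 to 59.7 in *Jag1* WT and 61.0 to 69.1 in mutants (0.23, standard error 0.0741, limma adjusted p = 0.106). *Elk3* had the smallest p of the list in *Dll4flox;Cdh5-CreERT2*, at 99.9 to 109.5 in WT and 120.7 to 125.2 in mutants (0.24, standard error 0.0585, limma adjusted p = 0.0851). *Elk4*, a partner of serum response factor, was at 27.0 to 29.9 in *Dll4GOF* WT and at 22.1 to 26.2 in mutants (-0.27, standard error 0.0745, limma adjusted p = 0.384).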

How the data were processed

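RNA was extracted from embryonic hearts or ventricles and sequenced. Per the labels and the study's methods, reads were demultiplexed with CASAVA 1.8.2, checked with FastQC, trimmed with cutadapt 1.6 and quantified with RSEM (1.2.3 in the submitters' processing notes) against a GRCm38 transcriptome of Ensembl, and the expected counts were normalized for limma. The deposited signal values are normalized counts, namely the rounded count plus 0.5, scaled to CPM with an adjusted library size. Undoing that scaling gave whole counts (within 0.01) for nearly all values, and so the depths.

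For each table, log2(value + 0.5) was fitted for mutant against WT with limma 3.58.1 (R 4.3.3, mean-variance trend), p-values were adjusted over all genes of the table, and an adjusted p under 0.05 was a call. On the recovered counts of the *Efnb2* table, edgeR 4.0.16 and DESeq2 1.42.0 were run as alternatives. Other alternatives were a pseudocount of 1, no trend, the upper 75% of genes by level, quantile normalization, a replicate block and leaving out each library. The fits were tested on simulated data. All members were named, with the targeted genes and the 8 genes most like the members. Other early genes and upstream genes given with a fold change were among the 4 of smallest p in their list and experiment. Not all such genes were given. The members and lists were chosen with earlier results of these data known. The p-values measure the spread between separate pools or embryos.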

Additional observations from a re-analysis of the deposited data

Results flagged for a closer look

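In groups of 4 libraries, 66 sets of a member's values were examined for a library standing apart from the other 3, and 4 were picked out by Dixon's test at the 95% level, where chance picks about 1 in 20. *Jun* was highest in WT library 4 of *Dll4flox;Cdh5-CreERT2*, at 100.7 normalized counts against 96.1 to 96.8 in the other 3. *Atf3* was highest in *Efnb2* mutant 1, at 23.43 against 16.9 to 17.7. *Egr1* was lowest in *Efnb2* mutant 3, at 13.13 against 19.6 to 20.1, and *Jun* was lowest in the same library, at 84.48 against 88.8 to 89.1. The test could not pick out a pair of high libraries, such as *Jag1* mutants 1 and 2, nor be applied to groups of 2 or 3.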

How the results depend on the processing

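Under the alternatives, 584 values of the members' 47 fold changes were computed, of which 536 kept direction and call, 10 lost a call, 8 gained one and 30 changed sign. The sign changes fell on 13 fold changes whose reported size was at most 0.42. Leaving out 1 library moved the count of members called between 0 and 1 in the *Jag1* experiment, 0 and 5 in E12.5 *Dll4*, and 0 and 1 in *Dll4flox;Cdh5-CreERT2*. Members at an unadjusted p under 0.05 then numbered 2 to 5, 2 to 6, 1 to 4, 1 to 5 and 2 to 3 in the order of the report, and 2, 4, 2, 2 and 2 without the trend. In *Dll4flox;Cdh5-CreERT2*, 0 were called without the trend, with quantile normalization, with the replicate block, and with the upper 75% of genes, a filter that removes *Fos*. Of all genes, 245, 311, 160, 0 and 4 were called in the order of the report. Leaving out 1 library gave 17 to 538, 35 to 563, 6 to 574, 0 to 29 and 3 to 13. Without the trend 48, 56 and 5 were called in the first 3 experiments, and with the upper 75% of genes 369 in *Jag1* and 0 in *Efnb2*. DESeq2 called 25 in *Efnb2* where edgeR called 4. The members' median SD in E12.5 *Dll4* ran from 0.14 to 0.491 when 1 library was left out. The cause of these shifts was not tested.

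What the replicate numbers shared by mutant and WT libraries stand for was not given in the sources used here. The deviations of same-numbered libraries correlated at -0.13 to 0.233. In *Dll4GOF* the median was 0.198 for same-numbered pairs and -0.039 for the others, whose highest was 0.073. In the other experiments both medians lay between -0.039 and 0.042. With the replicate block, 77, 31 and 1 genes were called in *Jag1*, E12.5 *Dll4* and *Dll4GOF*, and *Jun* (0.0058) and *Atf3* (0.030) in E12.5 *Dll4* and *Zfp36* (-0.051) in *Efnb2* changed sign. In *Efnb2* 0 members then had an unadjusted p under 0.05. With quantile normalization *Jun* in E12.5 *Dll4* became 0.019.

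Leaving out 1 library took these log2 fold changes across 0. In *Jag1* these were *Ier2* (-0.073 to 0.017) and *Jun* (-0.085 to 0.0080). In E12.5 *Dll4* they were *Jun* (-0.041 to 0.044), *Atf3* (-0.53 to 0.42) and *Btg2* (-0.085 to 0.93), and in *Dll4flox;Cdh5-CreERT2* *Dusp1* (-0.060 to 0.086). In *Dll4GOF* they were *Dusp1* (-0.15 to 0.070), *Nr4a1* (-0.067 to 0.57) and *Jun* (-0.15 to 0.028). In *Efnb2* they were *Dusp1* (-0.0095 to 0.094), *Atf3* (-0.091 to 0.093), *Zfp36* (-0.077 to 0.13) and *Jun* (-0.011 to 0.10). Count tests were run on the *Efnb2* table alone. *Fos* and *Fosb* rest on few counts, which limits the precision of their values, and a pair of mutant libraries limits any statement on E12.5 *Dll4*.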
